A study of Mus musculus with 4 samples.

Results

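The microRNAs mmu-miR-23a, mmu-miR-23b, mmu-miR-24, mmu-miR-27a and mmu-miR-27b are made from a pair of related gene clusters, and they were read here in whole mouse embryos with and without ER-alpha, a hormone-activated transcription factor that is the product of Esr1 and binds estrogens. They were chosen by name: every TaqMan assay of the panel called miR-23a, miR-23b, miR-24, miR-27a or miR-27b, whatever its arm or copy suffix, which gave 5 of the 375 microRNA assays. Total RNA came from whole embryos of the C57BL/6 strain at stage E18.5, in 2 samples labelled ER-alpha KO and 2 wild-type samples. The labels give no allele for the knockout, no sex and no litter, and leave unsaid how many embryos went into a sample. Any p-value here thus speaks of these 4 samples, whose scatter may be in part technical. The assays read small RNAs, so the Esr1 transcript itself was not analysed here. A well's value is its threshold cycle (Ct), out of 40 cycles: the more RNA, the earlier the Ct, and 1 cycle was taken as 1 log2 unit. Names carry the panel's prefix mmu for mouse, which is left out below for the members.

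A microRNA guides the silencing complex to messenger RNAs that pair with its seed, the bases near its 5′ end, and microRNAs with the same seed can bind many of the same targets. In mammals each cluster is transcribed as a single precursor that holds a miR-23, a miR-27 and a miR-24 hairpin, but the mature microRNAs of a cluster are also controlled after transcription and need not be equally abundant. The miR-23 and miR-27 families are known for their part in the growth of blood vessels, miR-27 for restraining the adipocyte regulator Pparg during fat-cell formation in mouse cells, and miR-24 for restraining cell-cycle genes such as E2F2 in human cells.

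In GRCm38.p6 coordinates of RefSeq, the miR-23a cluster (Mir23a, Mir27a, Mir24-2) spans chr8:84208518-84208921, 404 bp on the plus strand. It lies in no protein-coding gene, 2021 bp from the nearest boundary of Zswim4, the next protein-coding gene at higher coordinates. The miR-23b cluster (Mir23b, Mir27b, Mir24-1) spans chr13:63300484-63301275, 792 bp on the plus strand, within the boundaries of the protein-coding gene Aopep. The next protein-coding gene at higher coordinates is Fancc, with its nearest boundary 59 bp away. RefSeq mature sequences were matched by name for 4 of the 5 assays, taking the 3p arm, which is the arm these older names without an arm stand for. They are shown because the seed, bases 2 to 8 in capitals, sets which members can share targets.
mmu-miR-23a-3p: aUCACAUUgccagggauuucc
mmu-miR-27a-3p: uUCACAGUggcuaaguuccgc
mmu-miR-27b-3p: uUCACAGUggcuaaguucugc
mmu-miR-24-3p: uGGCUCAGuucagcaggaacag
The fifth assay reads mmu-miR-23b. The miR-27 pair has the same seed, and 20 of its 21 bases are the same; the difference is C19U, with positions counted from 1 at the 5′ end, miR-27a first. The seed of miR-23a has the same first 5 bases as the miR-27 seed and differs from it by 1 base in all, and the miR-24 seed differs from both.

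The mature miR-24 is the same from both clusters, so a signal of the miR-24 assay cannot be assigned to a cluster. The hairpins show this, with their 3p mature sequence in capitals.
Mir24-1 (chr13:63301208-63301275, plus strand): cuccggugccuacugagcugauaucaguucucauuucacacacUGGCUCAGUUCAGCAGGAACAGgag
Mir24-2 (chr8:84208815-84208921, plus strand): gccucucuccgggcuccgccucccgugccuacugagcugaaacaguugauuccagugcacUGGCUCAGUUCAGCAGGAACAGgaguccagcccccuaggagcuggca
The miR-27 hairpins differ outside the mature arm, and their assays name 1 cluster each.
Mir27a (chr8:84208672-84208758, plus strand): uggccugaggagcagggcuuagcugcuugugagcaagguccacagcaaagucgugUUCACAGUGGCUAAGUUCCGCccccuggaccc
Mir27b (chr13:63300712-63300784, plus strand): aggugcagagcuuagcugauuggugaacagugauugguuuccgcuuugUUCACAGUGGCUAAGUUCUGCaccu
How far the miR-27a and miR-27b assays tell apart sequences that differ at 1 base was not tested.

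A microRNA counted as detected at a Ct no later than 35. By that limit ER-alpha KO replicates 1 and 2 held 260 and 259 microRNAs, against 290 and 254 in wild-type replicates 1 and 2, and 229 were found in all 4 samples and tested. All 10 assays for microRNAs of muscle, endothelium, liver, brain and blood cells were detected in every sample, while of 5 for pluripotent cells 0 were detected in every sample and 3 in 3 of the 4 samples. Wild-type replicate 1 stood apart. Its Ct values correlated with those of the other 3 samples at a Pearson r of 0.939 to 0.954 over the 229 assays, while those 3 had 0.978 to 0.989 with each other. Its median tested microRNA came up at a Ct of 29.2, against 27.4 to 28.2 in the other samples. Outside U6, its 380 wells have the same constant of 0.273 cycles in their values, and once it is removed 90.0% of amplified wells sit at most 0.1 cycle from an integer, where 21.0% to 26.5% did in the other samples. Its member wells followed this: less the constant, the Ct was 31.009 for miR-23a, 31.981 for miR-23b, 21.959 for miR-24, 27.957 for miR-27a and 28.949 for miR-27b. The members' values in that sample are therefore resolved to about 1 cycle, and the members' differences between genotypes are also given without it. The exact permutation tests, and the shares of all microRNAs that passed a threshold or separated the genotypes, use all 4 samples.

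For the 4 members detected in all samples, mean levels in ER-alpha KO embryos were 1.01 to 1.27 times those in wild-type embryos, and 0 of the 4 passed the test. miR-24 was among the earliest of all assays, miR-27a and miR-27b lay near the middle of the panel, miR-23b was late, and miR-23a was detected in 1 sample. The Ct of mmu-miR-24 was 21.2 and 21.5 in ER-alpha KO replicates 1 and 2, against 22.2 and 21.4 in wild-type replicates 1 and 2. It ranked 4 of 229 by mean Ct, with and without wild-type replicate 1, and stood between mmu-miR-16 and mmu-miR-19b over all samples. For mmu-miR-27a the Ct was 26.8 and 26.7 in ER-alpha KO samples, against 28.2 and 26.4 in wild-type samples. That of mmu-miR-27b was 27.5 and 27.8 in ER-alpha KO samples, against 29.2 and 27.4 in wild-type samples. They ranked 91 and 111 of 229, next to mmu-miR-99a and mmu-miR-380-5p for miR-27a, and mmu-miR-376b and mmu-let-7d for miR-27b. The assay of mmu-miR-23b read 30.9 and 30.4 in ER-alpha KO samples, against 32.3 and 29.6 in wild-type samples, and ranked 177, between mmu-miR-324-5p and mmu-miR-193. In all 4 assays wild-type replicate 1 had the latest Ct, and the ER-alpha KO values of miR-23b, miR-27a and miR-27b lay between those of the wild-type samples. The order of different assays depends on their efficiencies, which are unknown, and neighbours in it are given without a claim that their levels differ.

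**Figure D1:**
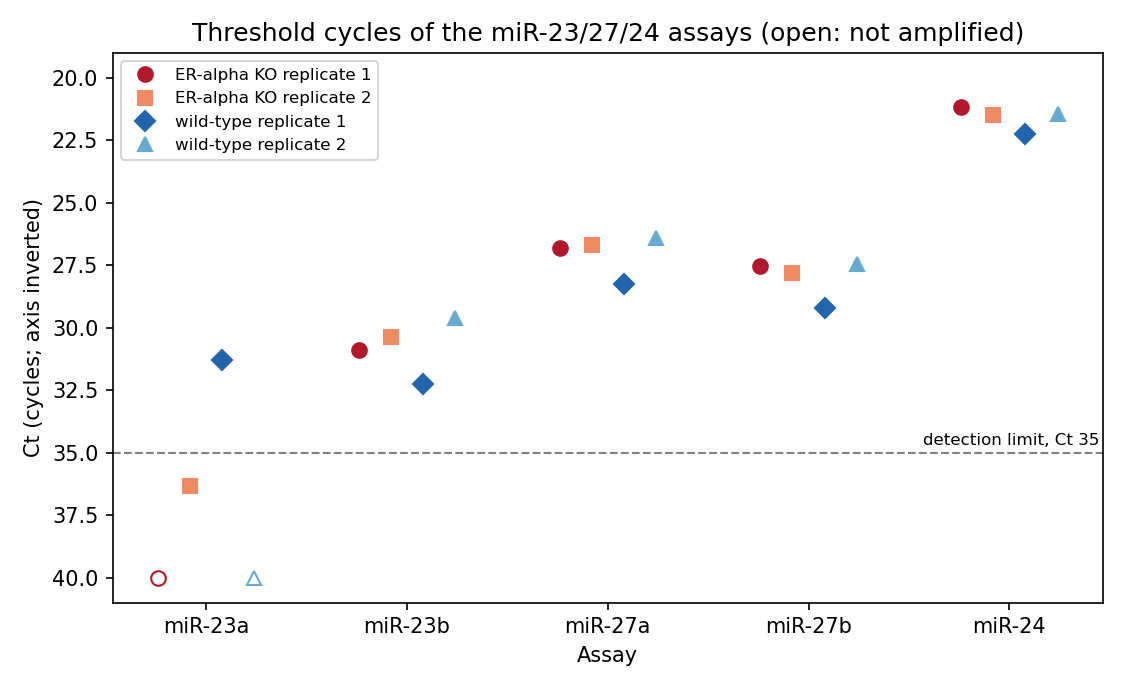
Threshold cycles (y axis, cycles, inverted so that more RNA is higher) of the 5 assays (x axis) in each of the 4 samples, 1 point per sample; open symbols at cycle 40 are wells without amplification and the dashed line is the detection limit of 35. miR-24 lies at a Ct of 21.2 to 22.2, miR-23a is inside the detection limit in wild-type replicate 1 only, and wild-type replicate 1 is the latest sample for the other 4 assays.

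mmu-miR-23a, which in human cells restrains glutaminase under the control of MYC, was the only member not detected in all 4 samples. It did not amplify in ER-alpha KO replicate 1 and had a Ct of 36.3 in ER-alpha KO replicate 2, against 31.3 in wild-type replicate 1 and no amplification in wild-type replicate 2. Only wild-type replicate 1 was inside the detection limit, and the assay was not tested. In that sample, whose values are resolved to about 1 cycle, miR-23a came up 0.972 cycles before miR-23b. In the other 3 samples miR-23b was detected and miR-23a was not. The reading belongs to a wider set: 40 microRNAs were detected in wild-type replicate 1 only, 27 of them with no amplification in the other 3 samples, and 18 of the 40 came up earlier in it than miR-23a. Its cluster partner miR-27a was detected in all 4 samples. At this depth a difference in miR-23a between genotypes was not detectable, and a Ct alone cannot separate a rare microRNA from an assay of low efficiency.

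The comparison of ER-alpha KO with wild-type embryos used levels relative to the median tested microRNA of each sample, in log2 units. Whole embryos mix many cell types, so fewer cells of a type and less RNA per cell cannot be told apart. Of the 4 tested members, 0 passed an adjusted p of 0.05 in limma, and 0% of all 229 microRNAs did. At an unadjusted p of 0.05, 0 of the 4 and 4.37% of all microRNAs passed. The median log2 fold change of the 4 was 0.23, and that of all 229 was 0.26. Without wild-type replicate 1 the medians were -0.00059 for the 4 and -0.031 for all microRNAs. Median-centred fold changes without that sample, here and below, use a median redone over 241 microRNAs. The redone median moves all members alike, so these values are not differences of the levels printed for the 4 samples.

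mmu-miR-27a had levels of 1.37 and 1.14 in ER-alpha KO replicates 1 and 2, against 1.00 and 0.98 in wild-type replicates 1 and 2. Both ER-alpha KO samples were above both wild-type samples, as they were for 33.2% of all 229 microRNAs. The reading of wild-type replicate 1 is resolved to about 1 cycle, coarser than its distance from the ER-alpha KO samples and than the wild-type SD. The means were 1.25 ± 0.16 in ER-alpha KO and 0.99 ± 0.019 in wild-type embryos (SD, n = 2 each), a log2 fold change of 0.26 with a standard error of 0.64 (limma adjusted p = 0.939). That equals the median of all microRNAs to 2 decimals. Without wild-type replicate 1, on the median redone over 241 microRNAs, the value was -0.055. On the levels above, both ER-alpha KO samples stayed above wild-type replicate 2.

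mmu-miR-27b, its near twin from the other cluster, had levels of 0.65 and 0 in ER-alpha KO replicates 1 and 2, against 0.012 and -0.062 in wild-type replicates 1 and 2. ER-alpha KO replicate 2 lay between the wild-type samples, so the groups overlapped, and in that sample miR-27b was itself the median microRNA. The means were 0.32 ± 0.46 in ER-alpha KO and -0.025 ± 0.052 in wild-type embryos (SD, n = 2 each). This wild-type SD is finer than the resolution of wild-type replicate 1, about 1 cycle. The log2 fold change was 0.35 (limma adjusted p = 0.939), and it was 0.054 without wild-type replicate 1.

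mmu-miR-24 had levels of 7.01 and 6.33 in ER-alpha KO replicates 1 and 2, against 7.002 and 5.93 in wild-type replicates 1 and 2. The groups overlapped, and in each genotype replicate 1 was the higher sample. The means were 6.67 ± 0.48 in ER-alpha KO and 6.47 ± 0.76 in wild-type embryos (SD, n = 2 each). The log2 fold change of 0.21 (limma adjusted p = 0.950) was smaller than the gap of 0.68 between the ER-alpha KO samples and of 1.07 between the wild-type samples; without wild-type replicate 1 it was 0.41.

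mmu-miR-23b had levels of -2.71 and -2.53 in ER-alpha KO replicates 1 and 2, against -3.02 and -2.26 in wild-type replicates 1 and 2. Both ER-alpha KO values lay between the wild-type values. The means were -2.62 ± 0.13 in ER-alpha KO and -2.64 ± 0.54 in wild-type embryos (SD, n = 2 each). The log2 fold change of 0.016 (limma adjusted p = 0.986) was among the smallest of the panel, at rank 227 of 229 by absolute size. Without wild-type replicate 1, on a median redone over 241 microRNAs, the value was -0.69. On the levels above, both ER-alpha KO values were also below that of wild-type replicate 2.

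The precision was low. On the linear scale the 95% intervals of ER-alpha KO over wild-type were 0.42 to 2.41-fold for miR-23b, 0.48 to 2.75-fold for miR-24, 0.50 to 2.86-fold for miR-27a and 0.53 to 3.03-fold for miR-27b, so these data do not show that the levels are alike. Gaps between samples of the same genotype ran from 0.18 to 0.68 log2 units in ER-alpha KO and 0.026 to 1.07 in wild-type embryos over the 4 members. The median gap of all 229 microRNAs was 0.44 in ER-alpha KO and 0.59 in wild-type embryos. The largest fold change of a member over all 4 samples, 0.35, was below both medians. Without wild-type replicate 1 the largest in size was -0.69, for miR-23b. That value is centred over 241 microRNAs and not 229, so it cannot be set beside these gaps.

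**Figure D2:**
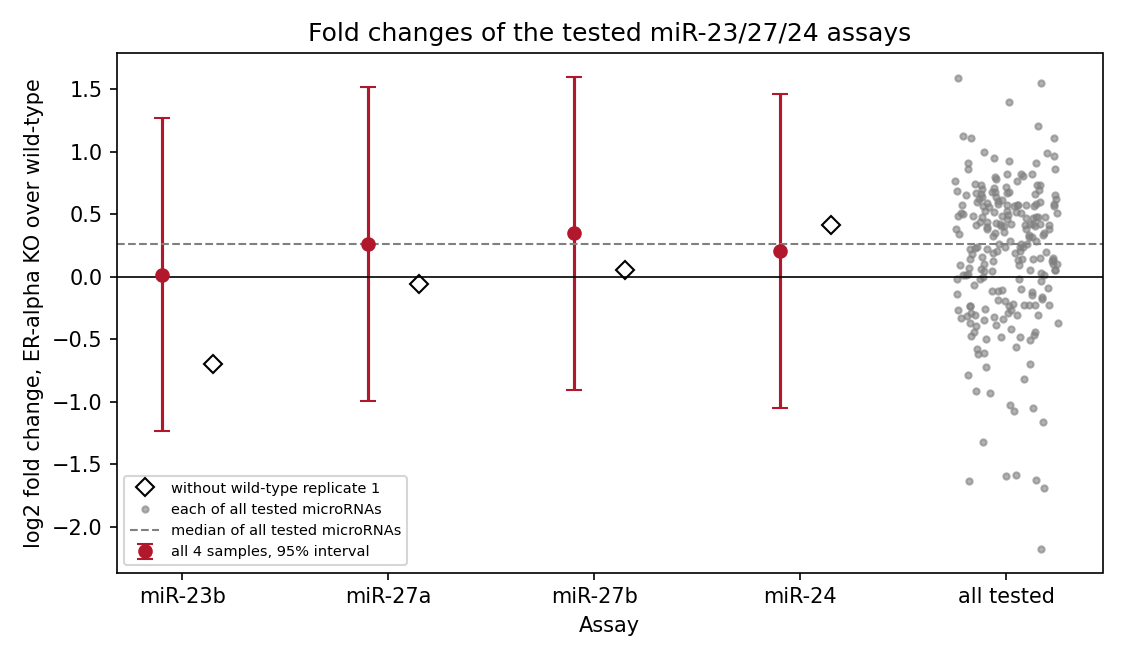
Log2 fold change of ER-alpha KO over wild-type (y axis) for the 4 tested assays (x axis), as filled points with the 95% interval of limma, with open diamonds for the value without wild-type replicate 1 and grey points for each of the 229 tested microRNAs, whose median of 0.26 is the dashed line. All 4 intervals include 0, and the diamonds of miR-23b (-0.69) and miR-27a (-0.055), which use a median redone over 241 microRNAs, lie below 0.

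Centring removes a shift of all microRNAs together, so the members were also scaled to the mean Ct of 5 small-RNA controls; on this scale all 229 microRNAs had a median log2 fold change of 0.54. miR-24 stood 3.12 and 2.95 log2 units above the controls in ER-alpha KO replicates 1 and 2, against 2.37 and 2.73 in wild-type replicates 1 and 2. Both ER-alpha KO samples were above both wild-type samples, which held for 20.5% of all 229 microRNAs on this scale. The difference was 0.48 (exact permutation test, two-sided, unadjusted p = 0.333, the smallest that 2 against 2 samples can give, in 1 of 4 such tests), and 0.30 without wild-type replicate 1. The separation depended on the controls used. With the control Y1 alone the groups also separated, but with U6, U87, snoRNA135 or snoRNA202 alone they overlapped. U87 itself had a Ct of 26.1 and 28.3 in ER-alpha KO replicates 1 and 2, against 26.3 and 27.8 in wild-type replicates 1 and 2.

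For the other 3 members the groups overlapped on this scale. Scaled to the controls, miR-27a stood at -2.38 ± 0.20 in ER-alpha KO and -2.92 ± 0.99 in wild-type embryos (SD, n = 2 each), a difference of 0.54. miR-27b stood at -3.31 ± 0.092 in ER-alpha KO and -3.94 ± 0.96 in wild-type embryos (SD, n = 2 each), a difference of 0.63. miR-23b stood at -6.26 ± 0.49 in ER-alpha KO and -6.55 ± 1.55 in wild-type embryos (SD, n = 2 each), a difference of 0.29. In all 3, wild-type replicate 1 was the lowest of the 4 samples, and without it the differences were -0.16 for miR-27a, -0.053 for miR-27b and -0.80 for miR-23b. The exact permutation test (two-sided, unadjusted) gave p = 1 for miR-27a and miR-23b and 0.667 for miR-27b.

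Differences between 2 assays of the same sample are left as they are when a sample is scaled by a constant, though not by quantile normalization, and they ask whether cluster partners and paralogs kept their balance. miR-27a came up before miR-27b by 0.72 and 1.14 cycles in ER-alpha KO replicates 1 and 2, against 0.99 and 1.04 cycles in wild-type replicates 1 and 2. All 4 samples thus lay within 0.42 cycles of each other, whichever genotype they had and whether or not wild-type replicate 1 was among them. The wells of wild-type replicate 1 are resolved to about 1 cycle, so its place within that range is not resolved. Over all 26106 pairs of tested microRNAs the median of this range was 1.37 cycles, and 5.70% of pairs had a smaller one; without wild-type replicate 1 the median was 0.75 and 23.6% of pairs had a smaller one. The narrow range of this pair thus stood out less among the 3 samples.

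Within the miR-23b cluster, miR-27b came up before miR-23b by 3.36 and 2.53 cycles in ER-alpha KO replicates 1 and 2, against 3.03 and 2.20 cycles in wild-type replicates 1 and 2. The balance of these cluster partners varied by 1.16 cycles over the samples, with replicate 1 the larger in each genotype. The difference between genotypes was 0.33, and 0.75 without wild-type replicate 1.

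miR-24 came up before miR-27a by 5.64 and 5.19 cycles in ER-alpha KO replicates 1 and 2, against 6.00 and 4.95 cycles in wild-type replicates 1 and 2. It came up before miR-27b by 6.37 and 6.33 cycles in ER-alpha KO replicates 1 and 2, against 6.99 and 5.99 cycles in wild-type replicates 1 and 2. In both pairs the ER-alpha KO samples lay between the wild-type samples, and above wild-type replicate 2, the sample left without wild-type replicate 1. The difference between genotypes was -0.058 for miR-24 over miR-27a and -0.14 for miR-24 over miR-27b, and without wild-type replicate 1 it changed sign in both, to 0.47 and 0.36. The widest range, 1.83 cycles, was that of miR-24 over miR-23b, at 9.73 and 8.86 cycles in ER-alpha KO replicates 1 and 2, against 10.02 and 8.19 in wild-type replicates 1 and 2. The remaining pair, miR-27a over miR-23b, stood at 4.08 and 3.67 cycles in ER-alpha KO, against 4.02 and 3.24 in wild-type replicates 1 and 2, a difference of 0.25 that was 0.64 without wild-type replicate 1.

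Over the 6 pairs the difference of ER-alpha KO minus wild-type ran from -0.14 to 0.33 cycles, the groups overlapped in each pair, and the exact permutation test (two-sided, unadjusted) gave p = 0.667 for miR-27a over miR-23b and miR-27b over miR-23b and p = 1 for the other pairs. Without wild-type replicate 1 the largest difference was 1.11 cycles, for miR-24 over miR-23b, and the smallest in size was -0.11, for miR-27a over miR-27b.

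**Figure D3:**
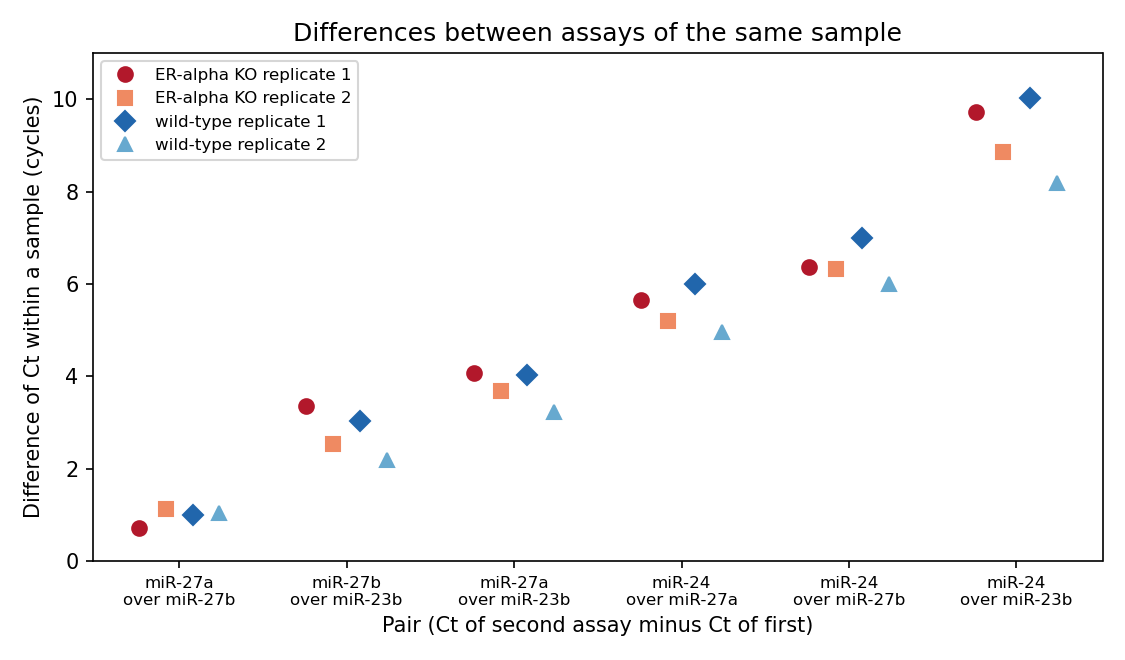
Ct of the second assay minus Ct of the first (y axis, cycles) for the 6 pairs of tested assays (x axis), 1 point for each of the 4 samples. The pair miR-27a over miR-27b has its samples between 0.72 and 1.14 cycles, while miR-24 over miR-23b runs from 8.19 to 10.02, with no pair in which the genotypes separate.

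The profile of an assay is its level in each sample less its own mean over the 4 samples. That mean includes wild-type replicate 1, whose readings are resolved to about 1 cycle. miR-24 was above its mean in ER-alpha KO replicate 1 (0.44) and wild-type replicate 1 (0.43), and below it in ER-alpha KO replicate 2 (-0.24) and wild-type replicate 2 (-0.64). miR-23b ran the other way, at -0.083 and 0.099 in ER-alpha KO replicates 1 and 2, against -0.39 and 0.37 in wild-type replicates 1 and 2. This opposition depended on wild-type replicate 1. With means taken without it, miR-24 and miR-23b were both below their mean in ER-alpha KO replicate 2. miR-27a and miR-27b were highest in ER-alpha KO replicate 1 (0.25 and 0.50) and lowest in wild-type replicate 2 (-0.14 and -0.21).

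By the root-mean-square difference of profiles over the 4 samples, the assays most like miR-27a were mmu-miR-200c (0.038 log2 units), mmu-miR-26b (0.071) and mmu-let-7d (0.081). Those most like miR-27b were mmu-miR-200a (0.036), mmu-miR-28 (0.060) and mmu-miR-872 (0.068). For miR-24 they were mmu-miR-331-3p (0.086), mmu-miR-467a (0.096) and mmu-miR-434-5p (0.14), and for miR-23b mmu-miR-328 (0.075), mmu-miR-652 (0.17) and mmu-miR-145 (0.18). No member was among the 3 closest of another: miR-27b ranked 24 for miR-27a, at 0.15, and miR-24 ranked 180 for miR-23b, at 0.72. With 4 samples, a close profile is a description of these samples alone. Wild-type replicate 1 is among them, resolved to about 1 cycle, which is coarser than these distances. The order of the closest assays is therefore not resolved, and distances without that sample were not computed.

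**Figure D4:**
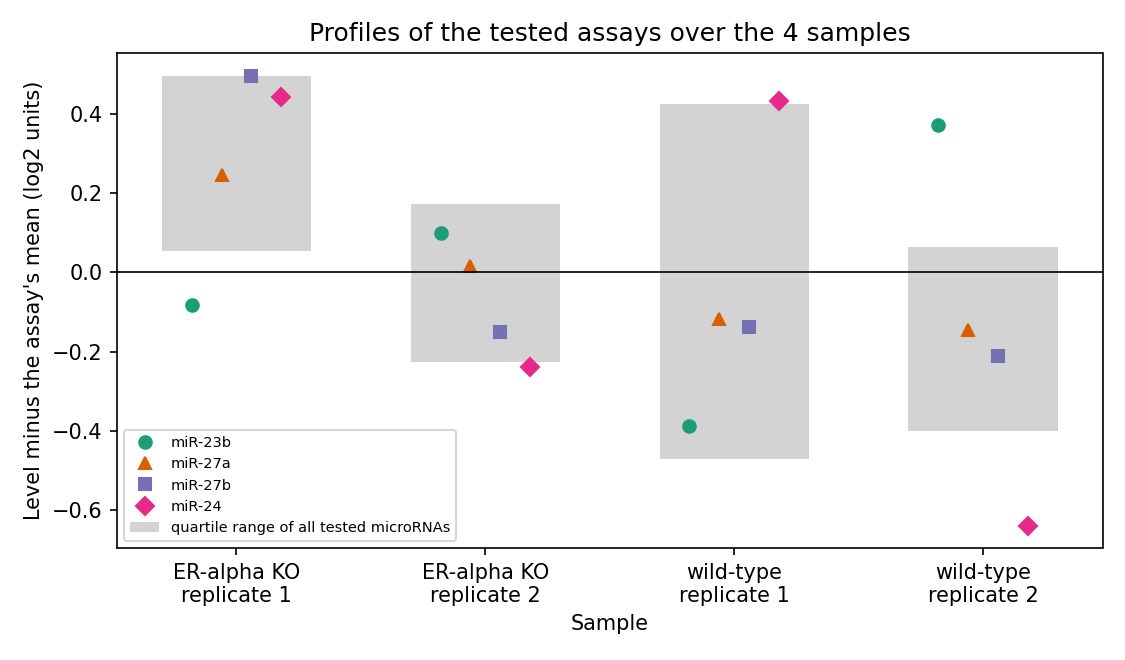
Level less the assay's own mean (y axis, log2 units) of the 4 tested assays in each sample (x axis), with grey bars for the range from the lower to the upper quartile of all 229 tested microRNAs. miR-24 and miR-23b lie on opposite sides of 0 in every sample, and miR-27a and miR-27b are highest in ER-alpha KO replicate 1 (0.25 and 0.50). The means include wild-type replicate 1, and without it miR-24 and miR-23b are on the same side in ER-alpha KO replicate 2.

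Other microRNAs on the panel hold a member's seed letters. A search of RefSeq's mouse mature microRNAs, for the same bases 2 to 7 or for the whole seed within the first 10 bases, found 8 names outside the clusters, of which 3 have an assay by name. They are shown with the letters common to the seed of miR-27 (miR-128-3p, miR-673-5p) or of miR-24 (miR-484) in capitals.
mmu-miR-128-3p: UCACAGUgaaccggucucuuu
mmu-miR-673-5p: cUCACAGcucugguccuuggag
mmu-miR-484: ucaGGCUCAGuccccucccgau
In miR-128 and miR-484 these letters are shifted from the usual seed position, starting at bases 1 and 4. They overlap bases 2 to 8 in part, and the seed there is not the same as a member's. Whether such a shifted run gives shared targets was not tested. The brain-enriched miR-128 (assay mmu-miR-128a, matched through a RefSeq synonym) had levels of -2.24 and -2.39 in ER-alpha KO replicates 1 and 2, against -3.01 and -2.29 in wild-type replicates 1 and 2. Its log2 fold change was 0.34 (limma adjusted p = 0.939), and -0.35 without wild-type replicate 1, on the redone median.

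The assay mmu-miR-484 had levels of 5.69 and 5.72 in ER-alpha KO replicates 1 and 2, against 3.99 and 5.52 in wild-type replicates 1 and 2. Wild-type replicate 1 was the low sample, and the log2 fold change was 0.95 (limma adjusted p = 0.939). Without that sample, on the redone median, it was -0.14. On the levels above, both ER-alpha KO samples stayed above wild-type replicate 2. The rat assay rno-miR-673 was not tested, with Ct values of 34.0 and 33.7 in ER-alpha KO replicates 1 and 2, against 36.3 and 34.1 in wild-type replicates 1 and 2.

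MicroRNAs known from the same settings as the members were counted as a pair of lists. The vessel list, with the endothelial miR-126 and the smooth-muscle miR-143 and miR-145 among its 15 names, had 17 assays, of which 16 were tested. By limma, 0 of the 16 passed the adjusted threshold and 0 had an unadjusted p under 0.05. Their median log2 fold change was 0.20, with 6 of 16 above the 0.26 of all microRNAs. The largest were mmu-miR-155 (0.91), mmu-miR-222 (0.77) and mmu-miR-92a (0.67), which were 0.17, -0.0043 and -0.58 without wild-type replicate 1. The median of the list was then -0.058 and that of all microRNAs -0.031.

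The fat-cell list had 9 of its 10 names on the panel, and all 9 assays were tested. By limma, 0 of the 9 passed the adjusted threshold and 0 had an unadjusted p under 0.05. Their median log2 fold change was 0.15, with 3 of 9 above 0.26, and -0.27 without wild-type replicate 1. The largest in size were mmu-miR-103 (-1.03), mmu-miR-193b (0.96) and mmu-miR-365 (0.52), which were -0.40, 0.30 and 0.050 without that sample. The assays of miR-130a, miR-143 and miR-210 belong to both lists.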

How the data were processed

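Per the labels' protocols, TRIzol-isolated total RNA went through 40 cycles of TaqMan PCR on a 7900HT instrument. The deposited values are scores in cycles, the Ct per well of the file headers; threshold, baseline and any normalization by the authors are not given in the sources used here. Wells marked undetermined were taken as not amplified, as were the 39 wells of wild-type replicate 1 above cycle 40; its constant was kept. The 4 U6 wells were averaged, and 1 plant control assay read in a single sample was not used. The level of a microRNA is the sample's median Ct, over the 229 microRNAs found at 35 or earlier in all 4 samples, minus its own Ct. PCR gives no read counts, so depth is the number of microRNAs detected, and 2 samples per group limit the precision.

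The genotypes were compared in R 4.3.3 by limma 3.58.1, using lmFit and then eBayes with genotype as the sole term (two-sided; tested on simulated data), with Benjamini-Hochberg adjustment over 229 microRNAs. As eBayes estimated an infinite prior, a common standard error holds for every assay. Without wild-type replicate 1 the filter and centring were redone over 241 microRNAs, and the lone wild-type sample is assumed to vary like the ER-alpha KO samples. Pairs of members and control-scaled levels were compared with exact permutation tests in scipy 1.17.1; 3 pairs had been planned, and the naming rule gave 4 tested members and 6 pairs. These p-values are given unadjusted. Python 3.11.15, pandas 2.3.3 and matplotlib 3.10.9 served for the tables and plots. The members, lists and tests were chosen with earlier results of these data known. Named microRNAs are the members, the 3 closest profiles and the neighbours by mean Ct of each, panel assays holding a member's seed letters, and the 3 largest fold changes of each list. Samples with the same number deviated from their group means alike (r = 0.37 across 229 assays). As there are 2 pairs and the labels give the numbers no meaning, no pairing was assumed. Alternatives were other scalings, removal of the constant, other filters, a block for the replicate number, leaving out each sample, and other variance settings.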

Additional observations from a re-analysis of the deposited data

How the results depend on the processing

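No member passed the limma adjusted threshold under any alternative, the adjusted p running from 0.360 to 0.9996 over the 4 tested members. With the replicate block, 1 microRNA of the panel passed, mmu-miR-324-3p (limma adjusted p = 0.00578; named after its value was seen), which is not a member; the block left the members' fold changes as they were, from 0.016 for miR-23b to 0.35 for miR-27b, with adjusted p of 0.809 or more. The log2 fold change kept its direction under all 13 alternatives for miR-27b only. It turned for miR-23b with the constant removed (-0.068), for miR-24 with a Ct limit of 32 (-0.091), and for miR-27a with that limit (-0.034) and with quantile normalization (-0.14). miR-23b was not tested at a limit of 32. Removing the constant and the limit of 32 changed the filter, to 234 and 177 microRNAs, and so the reference median. Each of these changes moved all tested members alike. Leaving out a sample also redid the filter and the median. Leaving out each sample in turn gave -0.69 to 0.51 for miR-23b, -0.22 to 0.47 for miR-24, -0.055 to 0.37 for miR-27a and 0.021 to 0.59 for miR-27b, with 0 microRNAs past the limma adjusted threshold each time and 1 to 68 at an unadjusted p under 0.05. Quantile normalization turned the difference between genotypes for miR-27a over miR-23b (-0.26), miR-27b over miR-23b (-0.10), miR-24 over miR-27a (0.36) and miR-24 over miR-27b (0.20). Leaving out each sample gave -0.73 to 1.11 for miR-24 over miR-23b, -0.15 to 0.64 for miR-27a over miR-23b, -0.085 to 0.75 for miR-27b over miR-23b, -0.58 to 0.47 for miR-24 over miR-27a, -0.64 to 0.36 for miR-24 over miR-27b, and -0.29 to 0.12 for miR-27a over miR-27b. Scaled to the controls, the ranges were -0.80 to 1.39 for miR-23b, 0.30 to 0.66 for miR-24, -0.16 to 1.25 for miR-27a and -0.053 to 1.31 for miR-27b when each sample was left out. Scaling to 1 control alone turned no sign but moved the size, from 0.031 (snoRNA202) to 0.89 (Y1) for miR-23b, 0.22 to 1.08 for miR-24, 0.28 to 1.14 for miR-27a and 0.36 to 1.22 for miR-27b, with the same controls at the ends. Apart from the moved median, the cause of these turns was not tested. The standard error of 0.64 log2 units and the coarse readings of wild-type replicate 1 limit what can be seen.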
